A study of Mus musculus with 6 samples.

Results

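The BCL-2 family decides whether a cell opens its mitochondria to the death machinery, and 10 of its genes are described here across 6 RNA-seq libraries of cultured mouse CD8+ T cells. They were picked by name from a table of 18122 genes and comprise the pro-survival genes Bcl2, Bcl2l1, Mcl1 and Bcl2a1b, the BH3-only genes Bcl2l11, Pmaip1, Bbc3 and Bid, and the effector genes Bax and Bak1. All 10 were in the table, and all 10 averaged 1 FPKM or more across libraries, the level a gene needed to be tested. FPKM counts fragments per kilobase of a gene's length, relative to sequencing depth, so levels of different genes can be compared.

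The cells came from lymph nodes of wild-type (WT) and Dusp2-/- mice, the latter lacking Dusp2, whose product is a phosphatase that acts on MAP kinases. All groups had 18 h of stimulation through CD3 (coated antibody, 1 µg/mL) and CD28 (antibody, 1 µg/mL) in the presence of 20 ng/mL of the cytokine IL-4 and 50 ng/mL of the cytokine IFN-α, meant to turn them into virtual memory T cells. Sorting on the surface protein CD44 then gave cells with super-high CD44, called CD44hi here, and cells with low CD44, called CD44lo. CD44hi had 2 libraries per genotype and CD44lo had 1. The sources used here do not give the age, sex or strain of the mice, or whether libraries came from separate animals, so a p-value here reflects how far these particular libraries spread, which may be technical.

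Part of the labels names Cd4-Cre Rpa1fl/fl mice, in which Cre under the Cd4 promoter deletes floxed Rpa1 in T cells, in place of Dusp2-/- mice. The 3 WT libraries held 82.6 to 116 FPKM of Dusp2, whereas 2 of the Dusp2-/- libraries held none and the other had 3 reads (0.0283 FPKM). Cd44 was at 65.3 to 79.9 FPKM in the CD44hi libraries and at 1.43 and 1.33 FPKM in the CD44lo ones. Reads recovered from the FPKM values numbered 23490008 in the Dusp2-/- CD44lo library and 42816073 to 55830235 in the others. The 5 CD8 T cell markers summed to between 915 and 1309 FPKM per library. The 3 CD4 T cell markers summed to at most 0.589 FPKM and Cd79a, the B cell marker with a row, reached 0.379 FPKM at most (Ms4a1 and Pax5 were not analysed here). The NK cell markers Klrb1c and Eomes, the latter also a gene of CD8 memory cells, summed to 66.3 to 92.3 FPKM, with Ncr1 not analysed here. The sample descriptions also name 10X Genomics, a maker of single-cell kits, but the protocol describes total RNA and the table has 1 column per library, so the values are treated here as bulk RNA-seq.

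In the mitochondrial pathway of apoptosis, the effectors BAX and BAK form pores in the outer mitochondrial membrane. Pro-survival proteins hold them and their activators in check, and BH3-only proteins either neutralise the pro-survival proteins or activate the effectors directly. In T cells, BCL-2 maintains resting and memory cells, BCL-XL (the main product of Bcl2l1) and A1 (the product of the Bcl2a1 genes) are induced on activation, MCL-1 is needed at every stage, and BIM (the product of Bcl2l11) removes cells when cytokine or antigen signals end.

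Mcl1 was the most abundant of the 10 transcripts, with 135 to 207 FPKM, and made up 61.4% to 75.6% of the summed FPKM of the 4 pro-survival genes in each library. Bcl2l11 made up 74.1% to 81.9% of the sum of Bcl2l11, Pmaip1 and Bbc3, which leaves out the BH3-only gene Bid (13.0 to 15.5 FPKM). Pmaip1 and Bbc3 were the lowest, at 1.96 to 5.44 FPKM and 3.36 to 8.0 FPKM. The fewest reads behind any value were the 128 reads of Pmaip1 in Dusp2-/- CD44lo, which is far above the floor of 3 reads.

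**Figure D1:**
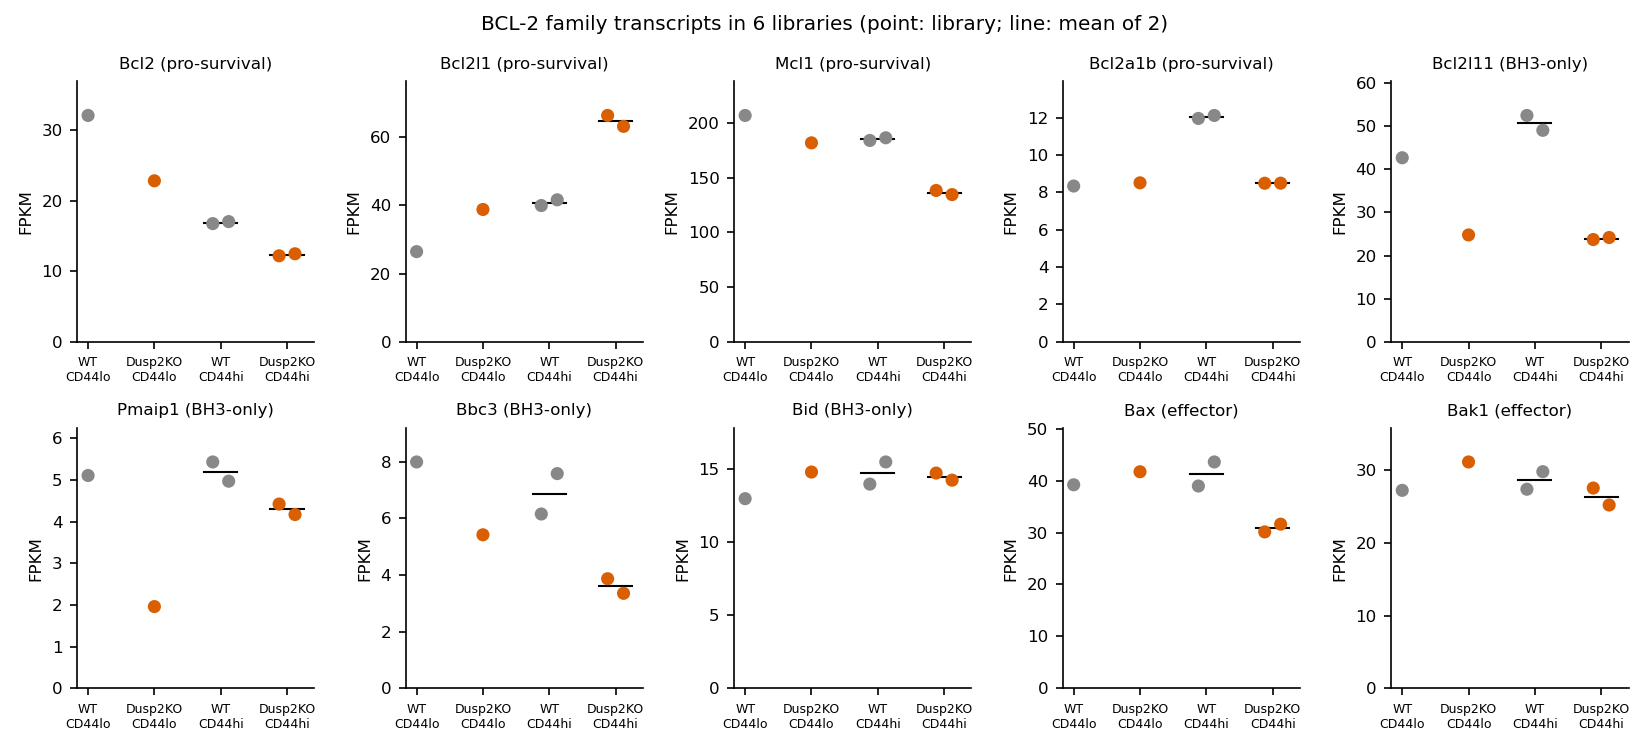
FPKM of each member (y axis, from 0) in the 4 groups (x axis); each point is a library, grey for WT and orange for Dusp2-/- (labelled Dusp2KO), and black lines are means of 2 libraries. Bcl2l11 lies between 23.7 and 24.8 FPKM in all 3 Dusp2-/- libraries and between 42.7 and 52.5 FPKM in the WT ones. Mcl1, Bbc3 and Pmaip1 also lie lower in every Dusp2-/- library than in any WT one.

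The genotype comparison asks how these genes stand in cells without Dusp2, and in CD44hi it rests on 2 libraries against 2. Among the pro-survival genes, Bcl2l1 rose in Dusp2-/- while Bcl2, Mcl1 and Bcl2a1b fell. Among the pro-death genes, Bcl2l11, Bbc3 and Bax fell, and Pmaip1, Bid and Bak1 did not pass. So 1 member rose and 6 fell, at an adjusted p under 0.05 from limma with Benjamini-Hochberg adjustment over 9691 genes. Of all genes tested, 26.7% passed, 12.9% higher and 13.8% lower. The median over the members was -0.42 on the log2(FPKM + 1) scale, against -0.02 over all genes tested, and the members were chosen with results of these data known. In bulk RNA, fewer cells that express a gene and less RNA per cell cannot be told apart.

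Bcl2l1 was at 39.9 and 41.6 FPKM in WT CD44hi and at 66.3 and 63.1 FPKM in Dusp2-/- CD44hi. The groups did not overlap, and the Dusp2-/- mean was 1.59 times the WT mean (log2 fold change 0.65, SE 0.063, adjusted p = 0.0019, limma). Bcl2l1 was the only member that rose. Pairs of 2 libraries can also lie apart for genes that did not pass, as for Pmaip1 below. How many of all genes tested lie apart in this way was not counted, so a lack of overlap carries little weight here.

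Bcl2, the gene of the founding member of the family, was at 16.7 and 17.0 FPKM in WT CD44hi and at 12.2 and 12.5 FPKM in Dusp2-/- CD44hi. Again the groups did not overlap, and the ratio of Dusp2-/- to WT was 0.730 (log2 fold change -0.42, SE 0.062, adjusted p = 0.0060, limma). The pro-survival genes Bcl2 and Bcl2l1 thus moved in opposite directions, and the ratio of Bcl2l1 to Bcl2 was 2.39 and 2.44 in WT CD44hi against 5.44 and 5.06 in Dusp2-/- CD44hi.

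Mcl1, whose protein is short-lived, was at 184 and 186 FPKM in WT CD44hi and at 138 and 135 FPKM in Dusp2-/- CD44hi (log2 fold change -0.44, SE 0.066, adjusted p = 0.0068, limma). The pairs did not overlap. Without Dusp2-/- CD44hi replicate 2 the adjusted p was 0.074.

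Bcl2a1b is 1 of several near-identical mouse copies of the A1 gene. It was at 12 and 12.1 FPKM in WT CD44hi and at 8.49 FPKM in both Dusp2-/- CD44hi libraries (log2 fold change -0.46, SE 0.067, adjusted p = 0.0060, limma). Its copy Bcl2a1d, at a higher level, was at 48.0 and 49.7 FPKM in WT CD44hi and at 33.4 and 37.2 FPKM in Dusp2-/- CD44hi (log2 fold change -0.46, SE 0.072, adjusted p = 0.0077, limma). The copy Bcl2a1a had at most 7 reads in any library.

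Reads can be split between these copies. In GENCODE M21 transcripts, 442 of the 768 windows of 50 bases in Bcl2a1b (57.6%) are also in Bcl2a1d, and 31.1% of windows of 100 bases are, so neither value stands alone. The DNA before their starts is also nearly the same, with 198 identical bases in 206 aligned columns (96.1%). The matching stretches upstream of both start sites are printed because they make the likeness visible. They are from RefSeq promoters on GRCm38.p6, chr9:89199023-89199228 on the plus strand for Bcl2a1b and chr9:88731851-88732050 on the minus strand for Bcl2a1d. Capitals mark bases that differ from, or are missing in, the other copy.
Bcl2a1b: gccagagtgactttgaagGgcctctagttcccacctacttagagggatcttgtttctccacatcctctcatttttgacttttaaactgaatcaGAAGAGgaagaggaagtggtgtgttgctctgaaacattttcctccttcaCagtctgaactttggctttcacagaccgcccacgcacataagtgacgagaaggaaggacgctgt
Bcl2a1d: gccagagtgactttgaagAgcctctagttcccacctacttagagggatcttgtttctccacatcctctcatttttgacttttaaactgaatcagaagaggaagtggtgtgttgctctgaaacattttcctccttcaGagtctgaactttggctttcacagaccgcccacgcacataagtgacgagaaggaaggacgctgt

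Of the pro-death genes, Bcl2l11 differed most. It was at 52.5 and 49.0 FPKM in WT CD44hi and at 23.7 and 24.2 FPKM in Dusp2-/- CD44hi, a ratio of 0.472 (log2 fold change -1.05, SE 0.065, adjusted p = 0.00068, limma). All 3 Dusp2-/- libraries of either fraction were below all 3 WT libraries. The same held for Mcl1, Bbc3 and Pmaip1, of which Pmaip1 did not pass. How many of all genes tested are separated in this way was not counted.

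Bbc3, the gene of the BH3-only protein PUMA, was at 6.16 and 7.59 FPKM in WT CD44hi and at 3.87 and 3.36 FPKM in Dusp2-/- CD44hi, a ratio of 0.526 (log2 fold change -0.77, SE 0.112, adjusted p = 0.0060, limma). The groups did not overlap. Pmaip1, the gene of NOXA, which binds MCL-1, was at 5.44 and 4.97 FPKM in WT CD44hi and at 4.43 and 4.17 FPKM in Dusp2-/- CD44hi. The pairs of Pmaip1 did not overlap either, but the difference did not pass (log2 fold change -0.23, 95% interval -0.43 to -0.02, adjusted p = 0.093, limma).

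Both BH3-only genes that fell, Bcl2l11 and Bbc3, have a start site with a FOXO motif nearby, and the stretches are shown for that reason. FOXO factors are known activators of BIM and PUMA. The letters searched were GTAAACA on both strands in the 250 bases before each of 32851 RefSeq starts, of which 3.17% hold a match. RefSeq starts were found for 9 of the 10 members, 14 starts in all, and 2 of the 14 held one, 1 of 2 starts of Bcl2l11 and 1 of 3 starts of Bbc3. Bcl2, Mcl1, Bcl2a1b and Bax, which also fell, held no match, and Pmaip1 had no start to search. A match describes letters and is not a bound site. Whether FOXO factors had a part in any of these falls was not tested. The stretches are chr2:128125788-128126037 for Bcl2l11 and chr7:16310011-16310260 for Bbc3, both on the plus strand of GRCm38.p6, with the motif in capitals (read on the opposite strand in Bbc3).
Bcl2l11: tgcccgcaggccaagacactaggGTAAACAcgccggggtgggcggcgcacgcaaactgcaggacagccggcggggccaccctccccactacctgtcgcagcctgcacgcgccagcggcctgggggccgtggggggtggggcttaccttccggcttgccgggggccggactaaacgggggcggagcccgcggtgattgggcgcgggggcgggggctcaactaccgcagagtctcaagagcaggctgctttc
Bbc3: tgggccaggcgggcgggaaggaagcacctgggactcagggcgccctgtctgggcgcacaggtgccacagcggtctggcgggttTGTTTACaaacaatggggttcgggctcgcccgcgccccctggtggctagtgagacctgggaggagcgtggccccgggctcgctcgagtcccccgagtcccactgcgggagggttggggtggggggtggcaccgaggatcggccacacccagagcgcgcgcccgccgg

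In the same windows the STAT letters TTCNNNGAA were in 0 of the 14 starts (7.02% of all starts). The AP-1 letters TGANTCA were in 1, that of Bcl2a1b (6.75% of all). These counts say only which letters the windows hold.

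Among the effectors, Bax was at 39.0 and 43.6 FPKM in WT CD44hi and at 30.1 and 31.6 FPKM in Dusp2-/- CD44hi (log2 fold change -0.41, SE 0.075, adjusted p = 0.013, limma). The groups did not overlap, and without Dusp2-/- CD44hi replicate 1 the adjusted p was 0.051. Bak1, whose protein sits in the mitochondrial membrane from the start, was at 27.4 and 29.8 FPKM in WT CD44hi and at 27.5 and 25.2 FPKM in Dusp2-/- CD44hi. Here the pairs overlapped, and the 95% interval of the log2 difference ran from -0.29 to 0.07 (adjusted p = 0.303, limma). Bid, the BH3-only protein that links death receptors to mitochondria, was at 14 and 15.5 FPKM in WT CD44hi and at 14.7 and 14.2 FPKM in Dusp2-/- CD44hi. It also overlapped, with an interval of -0.20 to 0.16 (adjusted p = 0.855, limma).

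With no filter on low values 2 of 18122 genes passed in this comparison, and none of the 10 members did. In that fit 4678 genes had an unadjusted p under 0.05, and the limma adjusted p-values of the 7 members that passed with the filter were 0.062 to 0.099. Mitochondrially encoded transcripts, a mark of RNA quality, made up 2.73% and 2.94% of reads in Dusp2-/- CD44hi against 2.15% and 2.03% in WT CD44hi. Their part in the result was not tested.

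**Figure D2:**
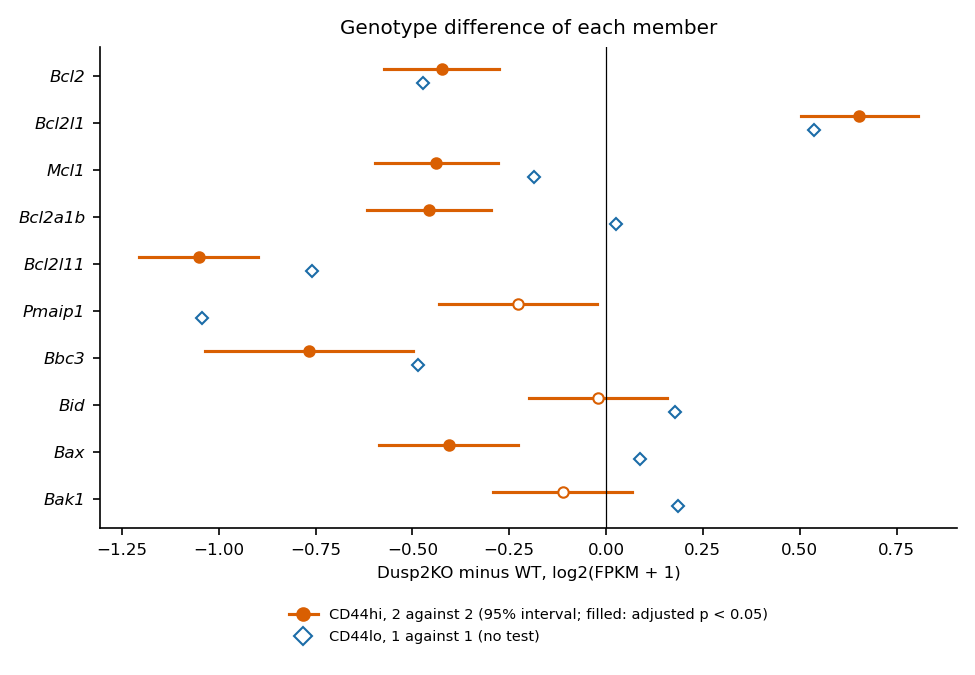
Difference between Dusp2-/- and WT on the log2(FPKM + 1) scale (x axis) for each member (y axis). Orange circles are CD44hi estimates from 2 against 2 libraries with 95% intervals, filled where the adjusted p is under 0.05, and blue diamonds are the single CD44lo pair with no test; Bcl2l11 lies at -1.05 and -0.76, and Bcl2l1 at 0.65 and 0.54.

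In CD44lo the same comparison has 1 library per genotype and no test. The WT library held 26.4 FPKM of Bcl2l1 and the Dusp2-/- one 38.8 FPKM, and Bcl2 at 32.1 and 22.8 FPKM. For Bcl2l11 the WT level was 42.7 FPKM and the Dusp2-/- level 24.8 FPKM, with Bbc3 at 8.0 and 5.42 FPKM. For these 4 genes the ratio of Dusp2-/- to WT was 1.47, 0.711, 0.581 and 0.678, on the same side of 1 as in CD44hi. Mcl1 was at 207 and 182 FPKM, a ratio of 0.879.

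The other members stood otherwise in CD44lo. For Bax the levels were 39.2 and 41.7 FPKM in WT and Dusp2-/-, with Bcl2a1b at 8.34 and 8.51 FPKM, both slightly above WT where in CD44hi they were below. Bak1 and Bid were at 1.14 times the WT level each. Pmaip1 was at 5.11 FPKM in WT (95% exact Poisson interval 4.74 to 5.50) and 1.96 FPKM in Dusp2-/- (1.64 to 2.33), intervals that cover counting error only. A log2 difference of 0.5 or more was seen upward in 1 member, Bcl2l1, against 4.42% of all genes tested. It was seen downward in 2, Bcl2l11 and Pmaip1, against 6.2% of all genes tested.

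With both fractions in an additive model of 3 Dusp2-/- and 3 WT libraries, which assumes the same genotype effect in both, Bcl2l1 rose (0.61) and Bcl2 (-0.44), Mcl1 (-0.35), Bcl2l11 (-0.96) and Bbc3 (-0.67) fell. These are 5 of 10 members, against 10.4% of all genes tested (5.23% higher and 5.17% lower). The model contains the CD44hi libraries and is not independent of the comparison above. Mcl1 missed the threshold without any 1 of the 4 CD44hi libraries, at limma adjusted p-values from 0.091 to 0.23. Bcl2 and Bbc3 each missed it without WT CD44hi replicate 1 or either Dusp2-/- CD44hi library, at 0.063 to 0.066 for Bcl2 and 0.050 to 0.068 for Bbc3. Bcl2l1 and Bcl2l11 passed with any 1 library left out. Without either CD44lo library, however, the additive model is the CD44hi comparison itself and not a separate check.

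The interaction asks whether the genotype effect differs between the fractions, and equally whether the fraction effect differs between the genotypes. Of the 10 members 1 passed, Pmaip1 (0.82, SE 0.148, adjusted p = 0.044, limma), against 4.22% of all genes tested (2.73% higher and 1.49% lower). Its level in Dusp2-/- CD44lo, 1.96 FPKM, was below that of the other 5 libraries, which held 4.17 to 5.44 FPKM. Across the alternatives its limma adjusted p ran from 0.0039 to 0.131, and it was 0.071 without Dusp2-/- CD44hi replicate 1. The reversed order of Bcl2a1b and Bax in the CD44lo pair did not pass (-0.48 and -0.49, adjusted p = 0.062 and 0.075, limma). In a fit with the replicate number of the labels as a block, both passed (limma adjusted p = 0.013 for Bax and 0.033 for Bcl2a1b). That fit called 1565 of all genes tested for the interaction, against 409 in the main fit. Across 14 alternatives each passed in 3, with values from -0.53 to -0.21 for Bcl2a1b and from -0.57 to -0.24 for Bax. With a trend on gene length removed, 0 of the 10 members passed. Both transcripts are short, at 0.83 kb (Bcl2a1b) and 1.60 kb (Bax) by the recovered reads. The part of length in their reversed order was not tested.

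The comparison of sorted fractions, 2 CD44hi libraries against 1 CD44lo library within each genotype, asks how these genes differ between cells with very high and low CD44. Bcl2 fell and Bcl2l1 rose with CD44 in both genotypes. In WT 2 members rose and 1 fell, where 15.4% of all genes tested rose and 10.7% fell (26.1% in all). In Dusp2-/- 2 members rose and 4 fell, where 23.6% of all genes rose and 16.5% fell (40.1% in all). The lone CD44lo library is assumed to vary like the CD44hi pairs.

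Bcl2 went from 32.1 FPKM in WT CD44lo to a mean of 16.9 ± 0.203 FPKM (SD, n = 2) in WT CD44hi (log2 fold change -0.89, SE 0.076, adjusted p = 0.00058, limma). In Dusp2-/- it went from 22.8 FPKM to 12.3 ± 0.202 FPKM (SD, n = 2; log2 fold change -0.84, SE 0.076, adjusted p = 0.00052, limma). The ratios of CD44hi to CD44lo, 0.527 and 0.541, lay close together, and the interaction of Bcl2 had a 95% interval of -0.21 to 0.31. The order of its levels was WT CD44lo, Dusp2-/- CD44lo, WT CD44hi, Dusp2-/- CD44hi, and the CD44hi groups did not overlap. The genes listed as stroma markers, Col1a1, Col1a2, Pdgfrb and Pecam1, were taken only as a sum, which had the same group order. The sum was 14.5 FPKM in WT CD44lo and 9.96 FPKM in Dusp2-/- CD44lo. In CD44hi it was 8.67 and 7.23 FPKM in WT and 5.55 and 5.26 FPKM in Dusp2-/-. Which of these genes carried the order was not examined. Whether the sum came from stroma or from the T cells themselves was not tested, nor was its part in the result.

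The order of Bcl2l1 was the reverse of that of Bcl2. It stood lowest in WT CD44lo (26.4 FPKM), at 38.8 FPKM in Dusp2-/- CD44lo and 39.9 and 41.6 FPKM in WT CD44hi, and highest in Dusp2-/- CD44hi. The fraction difference was 0.61 in WT and 0.72 in Dusp2-/- (SE 0.078 each, adjusted p = 0.0026 and 0.00096, limma). The Dusp2-/- CD44lo library and the WT CD44hi libraries thus lay close together, with no test of that difference.

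Bcl2a1b rose with CD44 in WT (0.48, SE 0.082, adjusted p = 0.0077, limma), and Bcl2a1d did too (0.79, SE 0.089, adjusted p = 0.0016). In Dusp2-/- the limma value of Bcl2a1b was -0.00 (95% interval -0.20 to 0.19), and Bcl2a1d rose by 0.30 (adjusted p = 0.034). With a trend on gene length removed from each library, Bcl2a1b in Dusp2-/- stood at 0.28 with a limma adjusted p of 0.045, so its direction there depends on that choice.

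Within Dusp2-/-, Pmaip1 rose with CD44 (0.84, SE 0.104, adjusted p = 0.0017, limma) and Mcl1 (-0.41), Bax (-0.42) and Bbc3 (-0.48) fell. In WT these 4 genes were at 0.02, -0.16, 0.07 and -0.20 and did not pass. Of the 4, the interaction passed for Pmaip1 only. Mcl1 missed the threshold without either Dusp2-/- CD44hi library (limma adjusted p = 0.067 and 0.096), and Bbc3 without replicate 2 (0.098). Bbc3 also missed it with no filter on low values (0.164), with libraries rescaled to a common total (0.065) and in voom (0.051), and Bax with no filter (0.083). With the length trend removed, Bax and Bbc3 missed it in Dusp2-/- (limma adjusted p = 0.062 and 0.11).

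Bcl2l11 differed little between the fractions, with 0.24 in WT (95% interval 0.06 to 0.43, adjusted p = 0.063, limma) and -0.05 in Dusp2-/- (-0.24 to 0.14, adjusted p = 0.66). Bid and Bak1 did not pass in either genotype. Bid had the narrowest range of the 10 genes, 13.0 to 15.5 FPKM over the 6 libraries.

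**Figure D3:**
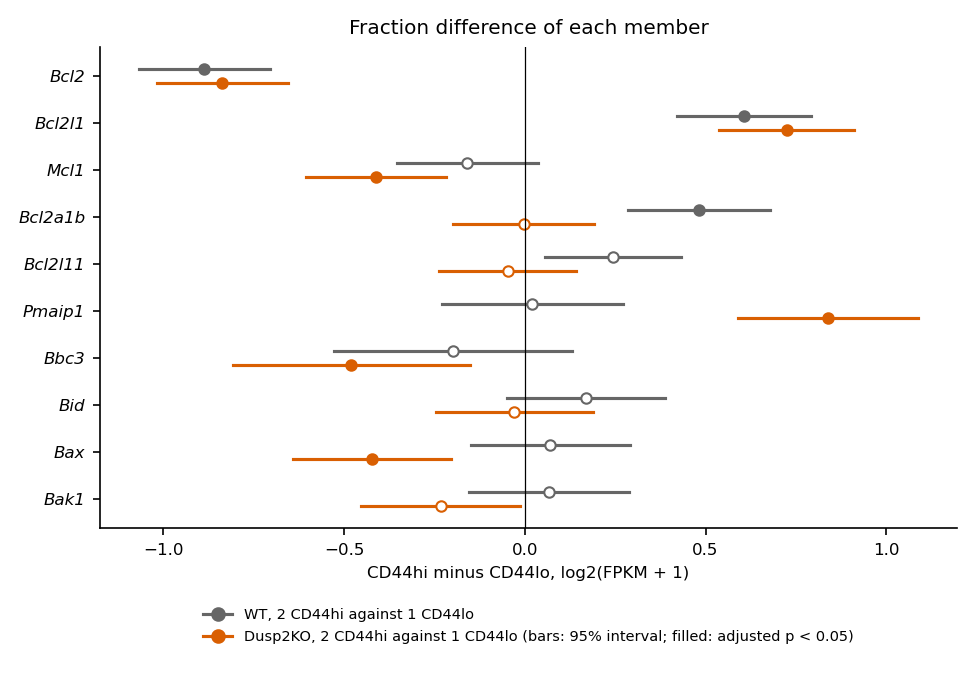
Difference between CD44hi and CD44lo on the log2(FPKM + 1) scale (x axis) for each member (y axis) in WT (grey) and Dusp2-/- (orange), each from 2 against 1 libraries, with 95% intervals and filled circles where the adjusted p is under 0.05. Bcl2 lies at -0.89 and -0.84 and Bcl2l1 at 0.61 and 0.72, while Pmaip1 lies at 0.02 in WT and 0.84 in Dusp2-/-.

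Set against each other within a library, the pro-survival and pro-death genes give ratios that describe transcripts and not proteins, and they were not tested. The ratio of Bcl2 to Bcl2l11 was 0.319 and 0.347 in WT CD44hi and 0.514 and 0.516 in Dusp2-/- CD44hi. In CD44lo it was 0.751 in WT and 0.920 in Dusp2-/-. Both genes were lower in Dusp2-/-, Bcl2l11 by the larger factor.

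The ratio of Bcl2l1 to Bcl2l11 was 0.761 and 0.849 in WT CD44hi and 0.619 in WT CD44lo, so Bcl2l11 was the more abundant of the pair in each WT library. It was 2.80 and 2.61 in Dusp2-/- CD44hi and 1.56 in Dusp2-/- CD44lo, so Bcl2l1 was the more abundant there. The ratio of Mcl1 to Pmaip1 was 31.3 to 40.5 in 5 libraries and 92.6 in Dusp2-/- CD44lo. That of Bcl2 to Bax was 0.391 to 0.430 in all 4 CD44hi libraries, and 0.818 in WT and 0.547 in Dusp2-/- CD44lo.

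The 4 pro-survival genes summed to 253 and 257 FPKM in WT CD44hi and to 225 and 219 FPKM in Dusp2-/- CD44hi, and without Mcl1 to 68.6 and 70.8 FPKM against 87.0 and 84.1 FPKM. For these 4 genes the direction of the sum thus depended on whether Mcl1 was counted. Neither sum holds the copy Bcl2a1d, which was lower in Dusp2-/- CD44hi (33.4 and 37.2 FPKM) than in WT CD44hi (48.0 and 49.7 FPKM). The direction without Mcl1 therefore also rests on which A1 copies are counted. Bcl2l11, Pmaip1 and Bbc3 summed to 64.1 and 61.6 FPKM in WT CD44hi and to 32.0 and 31.7 FPKM in Dusp2-/- CD44hi. Bax and Bak1 summed to 66.3 and 73.4 FPKM against 57.6 and 56.8 FPKM.

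**Figure D4:**
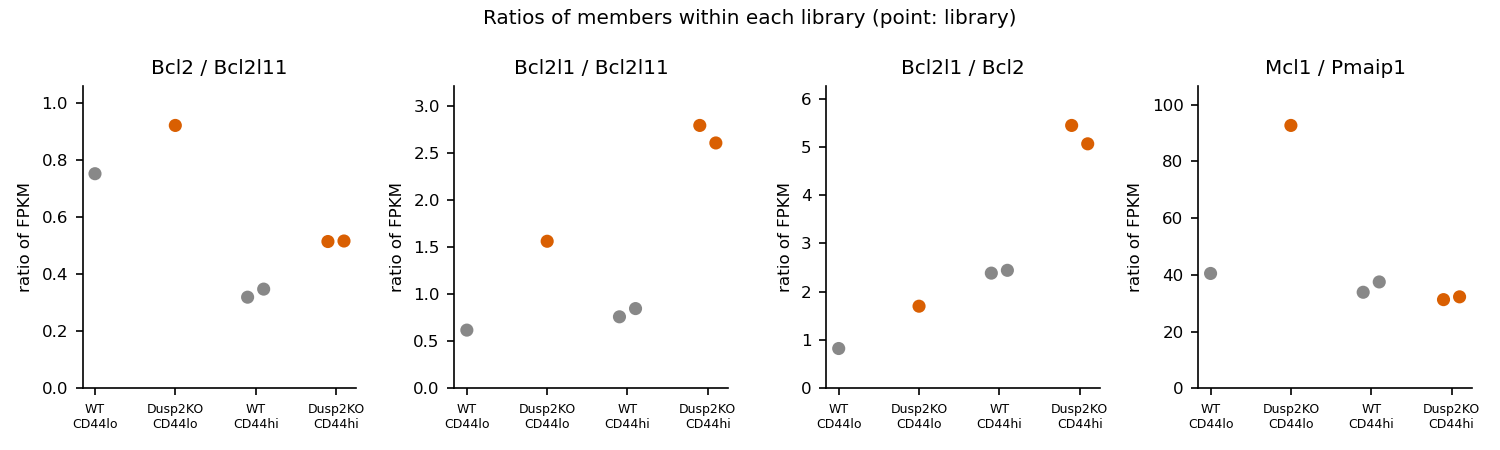
Ratios of FPKM between members within each library (y axis, from 0) by group (x axis); points are libraries, grey for WT and orange for Dusp2-/- (labelled Dusp2KO). Bcl2l1 to Bcl2l11 lies under 1 in all 3 WT libraries and between 1.56 and 2.80 in the Dusp2-/- ones, and Mcl1 to Pmaip1 stands apart at 92.6 in Dusp2-/- CD44lo.

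Bcl2l11 and Dusp2 are near neighbours on chromosome 2. By the order of genes in the RefSeq table of GRCm38.p6, used here only for order, 21 listed genes lie between them, 14 of them protein-coding, and 4 were tested. Bub1, a mitotic checkpoint kinase, rose in Dusp2-/- CD44hi (0.78, adjusted p = 0.0027, limma), and Fahd2a (-0.26), Mrps5 (-0.02) and Mtln (-0.25) did not pass. Of the 10 tested genes before Dusp2, 2 rose and 1 fell, with a median of 0.15. Of the 10 after Bcl2l11, 2 rose and 1 fell, with a median of 0.17. Among all genes tested 12.9% rose and 13.8% fell.

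The rises around the pair were those of Ncaph (0.41), Itpripl1 (0.37), Zc3h8 (0.39) and Ckap2l (0.54), and the falls those of Tmem127 (-0.27) and Chchd5 (-0.34). None of these 24 neighbours fell by as much as Bcl2l11. Loss of Dusp2 and any other difference around it between the mice of the 2 genotypes cannot be told apart for Bcl2l11 in this design. Bcl2l1 is also on chromosome 2, with 502 listed genes between it and Dusp2. Of the 99 of these that were tested 23.2% passed, against 26.7% of all genes.

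**Figure D5:**
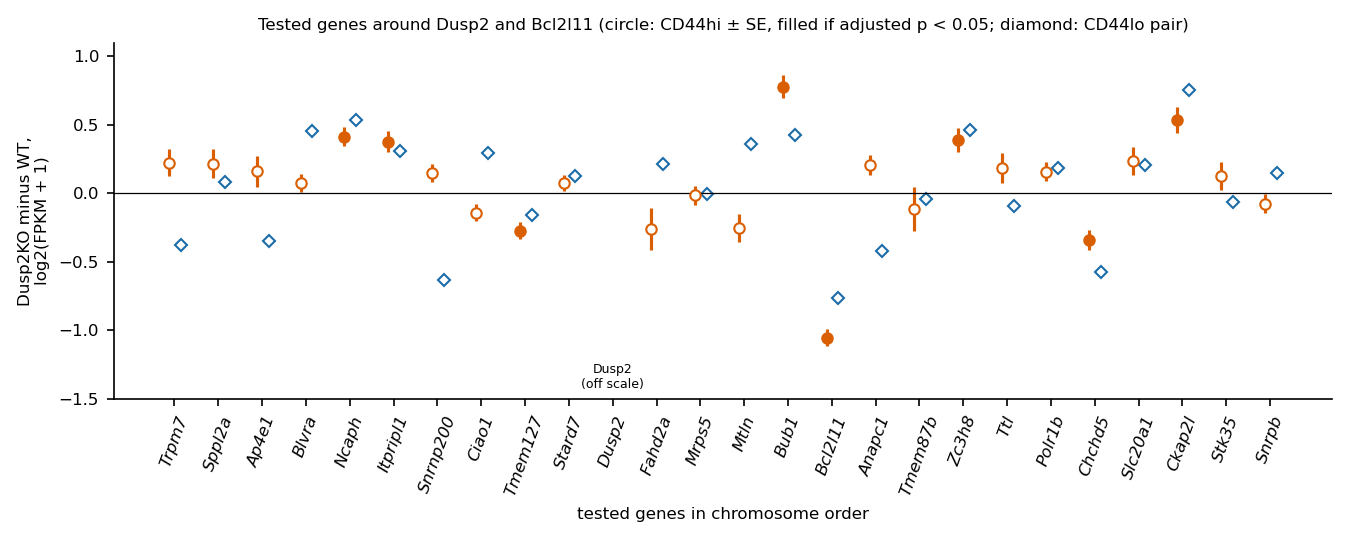
Difference between Dusp2-/- and WT on the log2(FPKM + 1) scale (y axis) for tested genes in their order on chromosome 2 (x axis): the 10 before Dusp2, those between Dusp2 and Bcl2l11, and the 10 after. Orange circles are CD44hi with SE, filled where the adjusted p is under 0.05, blue diamonds are the CD44lo pair, and Dusp2 is off the scale; Bcl2l11 is the lowest point shown in both fractions, at -1.05 and -0.76.

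Other genes of the family were mostly low. Of 15 listed, all had a row, 1 (Bcl2l2) had more than 1 row and was left out, and 6 were tested. In CD44hi 2 of the 6 fell in Dusp2-/-, where 13.8% of all genes tested fell. They were Bcl2a1d and Bnip3l (-0.55, adjusted p = 0.0063, limma), a BH3-like protein best known for removing mitochondria. Bad, Bcl2l12, Bcl2l13 and Bnip3 did not pass. The BH3-only gene Bmf was under the level needed for a test and is named here after its values were seen. It was at 1.33 and 1.58 FPKM in WT CD44hi against 0.464 and 0.353 FPKM in Dusp2-/- CD44hi, and at 1.24 against 0.542 FPKM in CD44lo. Bik, also BH3-only, untested and named after its values were seen, went the other way, on 16 to 59 reads per library. It was at 0.506 and 0.610 FPKM in WT CD44hi against 0.654 and 0.618 FPKM in Dusp2-/- CD44hi, and at 0.197 against 0.869 FPKM in CD44lo.

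Downstream of the mitochondria, 17 of 18 genes of the apoptosome, the caspases and their inhibitors were tested, and in CD44hi 8 rose and 1 fell in Dusp2-/- (median 0.12), where 12.9% of all genes tested rose and 13.8% fell. Among those that rose were Birc5 (0.67), the gene of survivin, which also acts in mitosis, and the mitochondrial protease Htra2 (0.37), and Casp2 (-0.31) fell. Between the fractions, Birc5 rose with CD44 by 1.95 in WT and 2.04 in Dusp2-/-. In WT Htra2 (0.47) also rose and Birc3 (-0.42) fell. In Dusp2-/-, where 23.6% of all genes tested rose and 16.5% fell, 7 of the 17 rose, Parp1 (0.67) and Xiap (0.57) among them, and Casp6 (-0.32) and Birc3 (-0.28) fell.

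Of 10 death receptor genes tested in CD44hi 2 passed, against 26.7% of all genes tested. Tnfrsf10b, a receptor for TRAIL, rose (0.65, adjusted p = 0.0056, limma) and Tnfrsf1a, a receptor for TNF, fell (-0.36, adjusted p = 0.018, limma). The median was -0.00. With CD44, Fasl (1.07) and Tnfsf10 (0.84) rose in WT and Casp8 (-0.32) fell. In Dusp2-/- Tnfsf10 (1.36) and Tnfrsf10b (0.74) rose, and Casp8 (-0.54) and Tnfrsf1a (-0.37) fell.

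Of 9 tested genes that act on MCL-1 or BIM turnover or bind family members at mitochondria, Huwe1 (0.46, adjusted p = 0.032, limma) and Usp9x (0.39, adjusted p = 0.021, limma) rose in Dusp2-/- CD44hi, where 12.9% of all genes tested rose. Huwe1 encodes a ligase that marks MCL-1 for destruction and Usp9x an enzyme that removes such marks. In CD44lo both were lower in Dusp2-/-, with Huwe1 at 21.9 FPKM in WT and 12.4 FPKM in Dusp2-/- and Usp9x at 9.23 and 5.34 FPKM. Both passed the interaction, as did 4.22% of all genes tested. These are long transcripts, of 23.9 and 15.3 kb by the recovered reads. Genotype differences correlated with length across the 9691 genes in opposite directions in the fractions (Spearman rho = 0.27 in CD44hi and -0.33 in CD44lo, across genes, which are not independent replicates). The difference of WT CD44hi replicate 1 minus 2 correlated with length as well (Spearman rho = 0.32). A length trend of such size thus also arose between libraries of the same group.

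Of 15 tested transcription factors known to act on the members, 2 rose and 6 fell in Dusp2-/- CD44hi, where 12.9% of all genes tested rose and 13.8% fell. The 4 with the smallest p were the stress factor Ddit3 (-1.03), Myb (-0.69), the AP-1 subunit Jun (-0.57) and Foxo1 (-0.35). Rel (0.43), the gene of the NF-kB subunit c-Rel, and E2f1 (0.34) rose. Foxo3 and Trp53 are named after their values were seen. Foxo3, a known activator of Bcl2l11, was at 8.78 and 8.35 FPKM in WT CD44hi and at 7.71 and 7.50 FPKM in Dusp2-/- CD44hi (-0.15, adjusted p = 0.16, limma). Trp53, a known activator of Pmaip1, Bbc3 and Bax, was at 52.7 and 53.9 FPKM in WT CD44hi against 51.2 and 51.5 FPKM in Dusp2-/- CD44hi. Neither Foxo3 nor Trp53 passed.

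The 3 members with the widest range over the 6 libraries were Bcl2, Bcl2l1 and Pmaip1. By distance between centred log2(FPKM + 1) profiles over 6 libraries, the tested genes most like Bcl2 were Ripor2 (distance 0.060) and Stat2 (0.160). Those most like Bcl2l1 were the histone gene H3c6 (0.115) and Egln3 (0.148). Those most like Pmaip1 were Npas2 (0.275) and Fmnl3 (0.336), which were farther from it. Ripor2 was at 12.3 FPKM in WT CD44lo, 8.90 FPKM in Dusp2-/- CD44lo, 6.16 and 6.14 FPKM in WT CD44hi and 4.44 and 4.39 FPKM in Dusp2-/- CD44hi, which is the order of Bcl2.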

How the data were processed

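RNA-seq of 6 libraries was deposited by the authors as FPKM values per gene, in 1 table of 18122 rows. The submitters' processing notes name HISAT2 2.0.5 and the builds mm39 and hg38, with no role given; the sources used here do not give the counter or annotation. No column of sample values was left unused (0).

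Groups came from the sample titles. FPKM values were log2-transformed with a pseudocount of 1, so fold changes of low genes are understated. Genes averaging 1 FPKM or more (9691) were fitted with limma 3.58.1 (R 4.3.3, variance trend, 1 coefficient per group) and adjusted by Benjamini-Hochberg at 0.05, two-sided; an additive model of genotype and fraction was fitted as well. The fit was tested on simulated data. Whole reads were recovered for 16220 rows (100% whole within 1e-06 reads). As a control 300 rows were altered, and 0 came out whole with a smallest count no larger than before. Altered rows that were whole only at larger counts were not counted. Limma voom on the recovered reads called 2751 genes in CD44hi. Recovered reads cover genes in the table only, and intervals from them cover counting error only.

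The members and lists were chosen with earlier results of these data known. Named were the members, near-identical copies of Bcl2a1b, Dusp2, Cd44, up to 4 called genes per list with the smallest p, genes that make a count of 5 or fewer explicit, the 2 nearest profiles of the 3 widest-ranging members, and chromosome neighbours of Dusp2. Mitochondrially encoded genes were the 13 protein-coding genes on that chromosome in RefSeq. Promoters are from RefSeq (GRCm38.p6), where Pmaip1 was not matched, and transcripts from GENCODE M21. Bcl2l2 has more than 1 row and was left out. Alternatives were other pseudocounts, filters and scalings, no trend, a replicate block, each library left out, voom, and removal of a length trend. Some genes of the lists are not reported here.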

Additional observations from a re-analysis of the deposited data

Results flagged for a closer look

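The test of a genotype effect that differs between the fractions passed for 3 of the members and listed genes. These were 1 of the 10 members and 2 of the 9 tested genes of turnover and mitochondrial binding. It passed for 0 of the 6 other family genes, 17 apoptosome genes, 10 death receptor genes and 15 transcription factors. Of all genes tested 4.22% passed. Pmaip1 had an interaction of 0.82 on the log2(FPKM + 1) scale (SE 0.148, adjusted p = 0.044, limma), with a genotype difference of -1.04 in the single CD44lo pair and -0.23 in CD44hi. Huwe1 had 1.23 (SE 0.202, adjusted p = 0.037, limma) and Usp9x 1.08 (SE 0.148, adjusted p = 0.032, limma), both lower in Dusp2-/- than in WT in CD44lo and higher in CD44hi. All 3 rest on 1 CD44lo library per genotype, of which the Dusp2-/- one was the shallowest and had the highest share of mitochondrially encoded reads (3.79%). The part of depth and RNA quality in these results was not tested. With a trend on gene length removed from each library, the limma values were 0.98 (adjusted p = 0.059) for Pmaip1, 0.73 (0.078) for Huwe1 and 0.73 (0.046) for Usp9x.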

How the results depend on the processing

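Genes called numbered 2586 (genotype in CD44hi), 1008 (genotype adjusted for fraction), 2527 and 3888 (fraction in WT and in Dusp2-/-) and 409 (interaction). With no filter on low values these were 2, 318, 1170, 2085 and 39. With 1 library left out they ranged from 1088 to 4092, 215 to 2590, 2171 to 3825, 2524 to 5515 and 346 to 3046. Except for fraction in WT (highest without WT CD44hi replicate 2, lowest without Dusp2-/- CD44hi replicate 1), the lowest counts came without Dusp2-/- CD44hi replicate 2. The highest came without WT CD44hi replicate 1, or, for adjusted genotype, without the Dusp2-/- CD44lo library, where that model is the CD44hi comparison itself. The interaction called 117 genes with no variance trend and 110 with the length trend removed. With the replicate number as a block, 468 genes were called for genotype adjusted for fraction and 1565 for the interaction. The deviations of same-numbered CD44hi libraries had a correlation of 0.022 across genes. With 1 such difference per genotype, this cannot show whether same-numbered samples were taken or processed together, which the sources used here do not give. With libraries rescaled to a common total FPKM, the median of all genes moved to 0.18 for fraction in Dusp2-/- and 0.13 for the interaction, and the former split into 3154 higher and 969 lower (2285 and 1603 as deposited), the genotype comparison in CD44hi into 1292 and 914 (1248 and 1338) and the interaction into 379 and 43 (265 and 144).

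Changes of sign were all in values that had not passed in the main fit. After its change of sign, Bcl2a1b by fraction in Dusp2-/- did pass with the length trend removed, as given above. Rescaling gave Bid 0.024 by genotype in CD44hi, and, by fraction in Dusp2-/-, Bcl2a1b 0.13, Bcl2l11 0.088 and Bid 0.11. Median-ratio scaling gave Bak1 0.0054 by adjusted genotype and Pmaip1 -0.025 by fraction in WT. Removal of the length trend gave Bid 0.012 by genotype in CD44hi, Pmaip1 -0.0087 by fraction in WT, Bcl2a1b 0.28 and Bid 0.053 by fraction in Dusp2-/-, and Bcl2 -0.13 in the interaction. With 1 library left out, Bid ranged from -0.091 to 0.048 by genotype in CD44hi and from -0.021 to 0.10 by adjusted genotype, Bak1 from -0.11 to 0.051 by adjusted genotype, and by fraction in WT Pmaip1 ranged from -0.033 to 0.075 and Bax from -0.0085 to 0.15. The cause of these changes was not tested. Pmaip1 could not be fitted with the filter at a mean of 5 FPKM. The single CD44lo library per genotype limits every comparison that uses it.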

Other observations

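Of the 9 tested genes that act on MCL-1 and BIM turnover or bind family members at mitochondria, 0 passed between the fractions in WT and 5 in Dusp2-/-, against 26.1% and 40.1% of all genes tested in limma. In Dusp2-/- Huwe1 (1.1), Usp9x (0.85), Dynll2 (0.41) and Fbxw7 (0.36), the gene of a ligase subunit that targets MCL-1, rose with CD44, and Dynll1 (-0.33) fell. The interaction passed for Huwe1 and Usp9x and not for the other 7, against 4.22% of all genes tested.

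Among the 15 transcription factors, Jun was lower in CD44hi than in CD44lo in both genotypes (-1.29 in WT and -0.89 in Dusp2-/-), and E2f1 (1.14 and 0.99), Nfkb1 (0.41 and 0.62) and Stat5a (0.43 and 0.51) were higher, and each passed in limma. Stat6 (-0.35) fell in WT, so that 3 rose and 2 fell there (15.4% and 10.7% of all genes tested), and 4 rose and 5 fell in Dusp2-/- (23.6% and 16.5%). The interaction passed for 0 of the 15, against 4.22% of all genes tested.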
